A study of Mus musculus with 22 samples.

Results

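Late loss of H3K27ac was examined in G1ER (G1E-ER4) cells, a mouse erythroid progenitor line that lacks Gata1 and carries GATA1-ER, a GATA1 protein switched on by β-estradiol. Every group shared this genotype. Cells were undifferentiated (0 h) or were taken after 2, 6, 12 or 24 h of β-estradiol, with 2 ChIP-seq peak lists per time point for H3K27ac and for H3K4me3, and a single CTCF list at 0 h and another at 24 h. The study describes the 2 lists of a time point as independent experiments, and the tests below measure the spread between them. All values come from this 1 engineered line. Of 44 erythroid genes, 22 to 24 had an H3K27ac peak at a transcription start site (TSS) in each list.

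The regions lost late were chosen by a rule on peak presence. The 10 H3K27ac lists were merged where peaks touched, which gave 24299 regions, and a region was kept if it had a peak in both 0 h lists, in at least 1 of the 6 h lists and in neither 24 h list, with an overlap of at least 1 bp. This left 724 members, 2.98% of the regions. They were drawn from the 16020 regions with a peak in both 0 h lists, of which 1015 had none at 24 h. The other 291 of those 1015 had no 6 h peak and are called lost early here. The presence values at 0, 6 and 24 h therefore define the members and are not findings. The lists at 2 h and 12 h, the other marks, the position and the sequence were not used by the rule.

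H3K27ac, acetylation of lysine 27 of histone H3, is placed by histone acetyltransferases at active enhancers and promoters and is removed by deacetylases when such elements are shut down. H3K4me3 marks mainly active promoters, and CTCF is a DNA-binding protein of insulators and loop anchors. GATA1 is the main transcription factor of the red cell lineage. When it becomes active in erythroid progenitors it takes over sites held by GATA2, switches on globin and other red cell genes, and silences genes of the progenitor and mast cell programs such as Kit and Gata2.

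Most members lay away from promoters, and their DNA is shown here for 6 of them because GATA1 is the factor that was activated. Each run has 150 bases of the plus strand of GRCm38 (the mm10 build) around the GATA match nearest the middle of the member, with each GATA word on either strand in capitals, a GATA word being A or T, then GATA, then A or G. Each member is named by the nearest protein-coding TSS, which does not show that it acts on that gene. The window near Akr1c19, an aldo-keto reductase gene, is at chr13:4257353-4257502 and belongs to the distal member with the highest 0 h rank. The one in Wapl, the cohesin release factor, is at chr14:34684881-34685030, and lost its peaks between 6 h and 12 h. The one near Cpa3, the mast cell carboxypeptidase, is at chr3:20222956-20223105. The windows nearest Gm10306 (chr4:94437813-94437962) and Ube2e3, a ubiquitin-conjugating enzyme (chr2:78656437-78656586), belong to members that also lost H3K4me3. The one in Bach2, a transcriptional repressor gene, is at chr4:32250353-32250502, has no match anywhere in the member and is shown around the midpoint.
Akr1c19: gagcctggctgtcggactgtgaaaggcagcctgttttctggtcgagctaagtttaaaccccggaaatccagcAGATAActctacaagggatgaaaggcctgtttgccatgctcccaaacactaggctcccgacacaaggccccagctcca
Wapl: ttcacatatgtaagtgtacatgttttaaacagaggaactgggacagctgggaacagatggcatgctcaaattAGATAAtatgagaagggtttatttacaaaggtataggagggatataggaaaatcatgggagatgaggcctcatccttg
Cpa3: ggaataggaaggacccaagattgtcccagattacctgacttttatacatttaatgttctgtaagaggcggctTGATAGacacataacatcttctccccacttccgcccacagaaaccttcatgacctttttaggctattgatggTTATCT
Gm10306: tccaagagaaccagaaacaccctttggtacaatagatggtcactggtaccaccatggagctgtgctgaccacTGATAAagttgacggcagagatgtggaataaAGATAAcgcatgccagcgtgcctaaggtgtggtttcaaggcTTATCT
Ube2e3: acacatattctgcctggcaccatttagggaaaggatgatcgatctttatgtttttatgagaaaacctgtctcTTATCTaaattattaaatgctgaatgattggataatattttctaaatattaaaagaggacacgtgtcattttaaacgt
Bach2: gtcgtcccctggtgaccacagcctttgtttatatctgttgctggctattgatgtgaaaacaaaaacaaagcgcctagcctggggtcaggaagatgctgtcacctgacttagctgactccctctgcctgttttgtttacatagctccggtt

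GATA words were common in members and in H3K27ac regions at large. In the 1000 bp around the midpoint, on both strands, 645 of 724 members (89.09%) held one. Among the 641 members without a TSS the share was 91.26%, against 88.78% of the 7763 regions without a TSS that had a peak in both 0 h lists and 90.01% of all 15430 regions without a TSS. The same words read backwards (A or G, then ATAG, then A or T, which can share bases with a GATA word) were in 79.72% of the members without a TSS and in 74.33% of the 0 h regions without a TSS. A GATAA with CTG ending 8 bases before it, the spacing bound by GATA1 together with TAL1, was in 50 of 641 (7.8%) against 6.96% of the 0 h regions without a TSS. Members thus held GATA words about as often as other distal regions of this line. Of the 165 members without a TSS that had a peak in every list up to 12 h, 158 (95.76%) had a match, and of the 24 with a peak in every list up to 6 h and none at 12 h, 23 did. The share was 92.02% in all 163 members without a TSS that had no 12 h peak. It was 88.37% in the 5435 regions without a TSS that had a peak in all 10 lists. Differences between these subsets were not tested.

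Words of other blood factors gave similar shares, again over both strands of the same window. Among members without a TSS, AGGAAG or CGGAAG (ETS family) was in 81.9%, against 82.35% of the 0 h regions without a TSS. TGTGGT or TGCGGT (RUNX family) was in 60.53% against 62.21%. CAGCTG or CAGATG (E-box) was in 75.2% against 73.39%. TGAGTCA or TGACTCA (AP-1) was in 25.12% against 21.49%, and in 29.32% of the 249 regions lost early without a TSS. CCACACCC or CCACGCCC (KLF family) was in 12.01% against 14.21%. These are descriptions of letters in a window, with no test.

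Members were distal and low in rank, as were the regions lost early. Only 83 of 724 (11.46%) held a protein-coding TSS, against 36.5% of all regions and 51.54% of the regions with a peak in both 0 h lists. Of the regions lost early, 14.43% did. Of the members, 30.66% lay in introns, 13.54% overlapped an exon without holding a TSS, and 44.34% were intergenic. Of the 641 without a TSS, 166 lay within 10 kb of one, 258 at 10 to 50 kb, 89 at 50 to 100 kb and 128 farther away. Their median GC content was 44.0%, close to the 45.8% of the 0 h regions without a TSS. The merged length of a member ran from 436 to 14826 bp with a median of 1796 bp, against 2988 bp for regions with a peak in both 0 h lists. For regions lost early the median was 1302 bp.

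The rank of a peak was taken as the percentile of the caller's score within its own list. The mean 0 h percentile of the members ran from 0.43 to 89.28 with a median of 18.84, against a median of 57.14 for the other 15296 regions with a peak in both 0 h lists. By 0 h list, the medians were 19.51 and 18.12 in members and 12.79 and 12.13 in regions lost early. Only 28 members stood at 50 or above, and 11 of these had no TSS. Many members also lay close to the edge of the rule. Peak scores start at 50 in these lists, and in 187 members (25.83%) the lower of the 0 h scores was under 60, with a median of 75.57. Just outside the rule, 1036 regions had a peak in both 0 h lists, at least 1 of the 6 h lists and exactly 1 of the 24 h lists, and the median score of that single 24 h peak was 74.775. A further 648 failed because 1 of the 0 h lists had no peak.

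The number of members depended on the 24 h lists and on the score of the peaks. It was 1298 without the first 24 h list and 1191 without the second, and it was 380 when peaks under the median score of all lists were dropped. With these higher-scoring peaks 33.947% of the members held a TSS.

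The lists that the rule left aside showed a peak at most members at 2 h and at fewer of them at 12 h. At 2 h, 406 members (56.08%) had a peak in both lists, 212 in 1 list and 106 in neither. At 12 h, 290 (40.06%) had a peak in both lists, 253 in 1 list and 181 (25.0%) in neither. The same shares for all regions with a peak in both 0 h lists were 91.91% with both at 2 h and 91.24% with both at 12 h. By list, 496 and 528 members had a peak at 2 h and 427 and 406 at 12 h, so the lists of the 2 time points did not overlap. Of the members, 180 (24.86%) had a peak in all 8 lists up to 12 h and 491 in at least 1 list at each of 2, 6 and 12 h. A further 25 had a peak in every list up to 6 h and in none at 12 h.

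**Figure D1:**
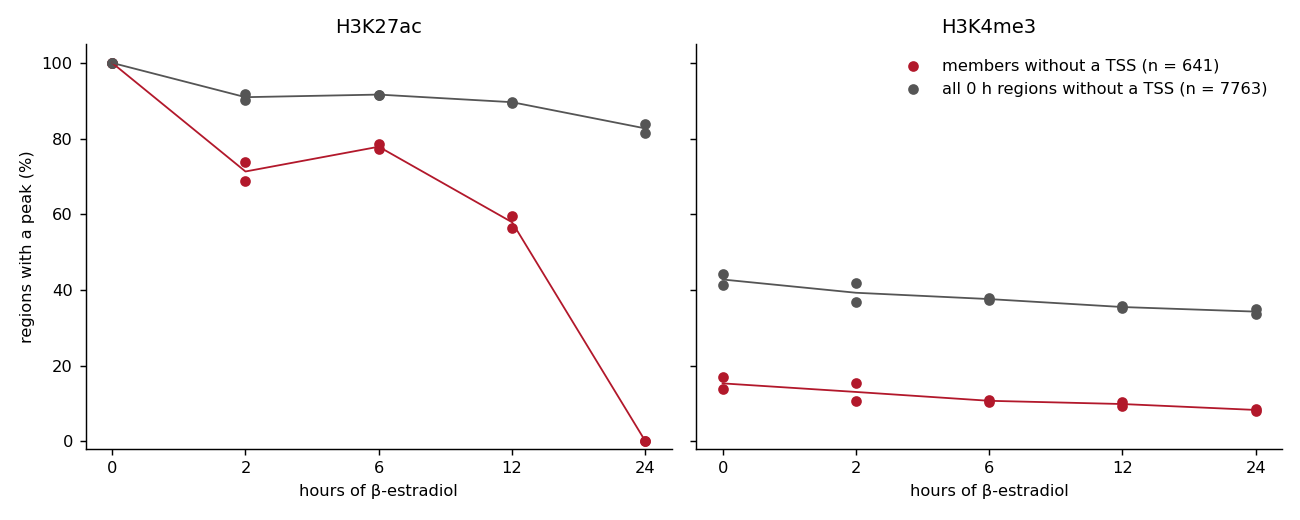
Percentage of regions without a protein-coding TSS that have a peak (vertical axis) by hours of β-estradiol (horizontal axis, evenly spaced), for H3K27ac on the left and H3K4me3 on the right. Each point is 1 list and lines join the means of the 2 lists. The 641 members are in red. For H3K27ac their lists gave 68.8% and 73.79% after 2 h and 59.44% and 56.32% after 12 h, with the ends of the course fixed by the rule. The grey points are the 7763 regions without a TSS that had a peak in both 0 h lists.

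Where a peak was called, it was also shorter and lower in rank by 12 h. The median covered length of the members with a peak was 1347 and 1388 bp in the 2 h lists and 1135 and 1150 bp in the 12 h lists, and the median percentile went from 18.95 and 20.71 to 15.88 and 15.6. In the 180 members with a peak in all 8 lists, median covered length was 1621 and 1644 bp after 2 h and 1356 and 1337 bp after 12 h. The other 15296 regions with a peak in both 0 h lists had medians of 2374 and 2442 bp after 2 h and 2465 and 2512 bp after 12 h. The members' values at 12 h lay below those at 2 h, and those of the other regions lay above.

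Region by region, covered length at 12 h lay below that at 2 h more often than above it. Of 573 members with a peak in at least 2 of these 4 lists, both 12 h lists were below both 2 h lists in 207 (36.1%) and above them in 61 (10.6%), and the lists overlapped in 305. The background over 18272 regions compared in the same way was 14.1% below and 26.5% above. Of the 84 regions lost early that could be compared, 33.3% were below and 10.7% above. The member shares were 37.92% below and 10.02% above without a TSS, and 21.88% and 15.62% among the 64 compared that held one. Where all 4 lists had a peak, 84 of 214 members (39.25%) were below, against 13.04% of the 13901 other 0 h regions.

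Presence at 2 h and 12 h rose with the 0 h percentile, so members were set beside other regions of similar 0 h percentile, all without a TSS. At percentiles from 10 to 20, 33.33% of 234 members had a peak in both 12 h lists, against 68.93% of 1059 others. At percentiles from 20 to 30 the shares were 49.45% of 182 and 87.55% of 1261, and from 30 up they were 67.68% of 99 and 98.23% of 4412. The members stood below the other regions in every bin. They also did at 2 h, with 73.08% against 88.03% in the bin from 20 to 30. The share with both 12 h lists below both 2 h lists was 44.91% of 167 members and 17.49% of 1229 others in that bin, and 29.17% of 72 and 16.61% of 271 under the 10th percentile. The rule required members to lack a peak at 24 h, whereas most other 0 h regions had a peak then. The percentile also came from the 0 h lists that the rule used. How far this choice sets the differences in each bin was not tested.

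**Figure D2:**
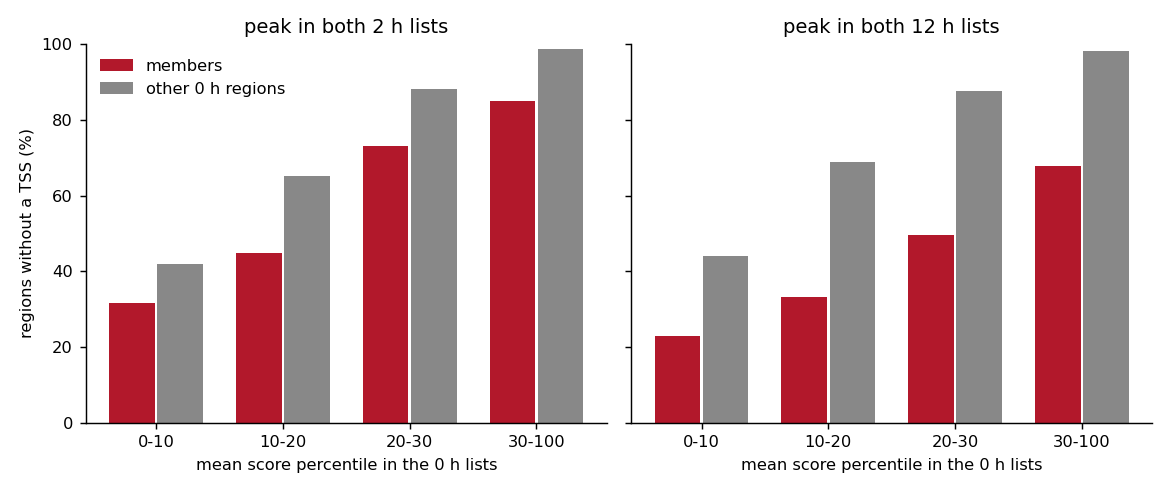
Percentage of regions without a TSS that had a peak in both 2 h lists (left) and in both 12 h lists (right), by mean score percentile in the 0 h lists (horizontal axis). Members are in red and other regions with a peak in both 0 h lists in grey. Members are the lower bar in each bin, from 31.75% against 42.05% at 2 h and 23.02% against 44.1% at 12 h in the lowest bin. Members lack a 24 h peak by the rule, and most of the other regions have one.

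A fit across all regions called few members. Covered length was tested with limma on the log2(bp + 200) scale over the 4 lists at 2 h and 12 h. The background was 0.41% of 18272 regions called lower at 12 h and 0.235% called higher at an adjusted p under 0.05. Of 573 members tested, 5 (0.873%) were lower and 1 (0.175%) was higher. At an unadjusted p under 0.05 the background was 3.8% lower and 6.46% higher, and the members had 93 (16.2%) lower and 24 (4.19%) higher. The median difference was -0.28 in members and 0.05 over all regions, and it was negative in 400 members. No member was called when either 2 h list was left out, and 10 and 8 were called lower without the first and the second 12 h list.

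Among the 5 members called lower, 4 lay at promoters and 1 in an intron. The distal one, in Wapl at chr14:34683061-34686706, covered 2836 and 3322 bp at 0 h, 2928 and 3424 bp after 2 h, 2956 and 2942 bp after 6 h and nothing at 12 h or 24 h. Its score percentile went from 20.25 and 17.59 at 0 h to 9.85 and 15.04 after 2 h and 6.03 and 11.14 after 6 h. The peaks lost rank while keeping about the same length before they left the lists, and the 12 h against 2 h difference was -4.07 ± 0.23 (SE, adjusted p = 0.038). A difference against lists without a peak is set by the added 200 bp and is not a fold change. At Snap23, a membrane fusion gene, the region covered 7723 and 7620 bp after 2 h, 8054 and 7499 bp after 6 h and nothing at 12 h (-5.30 ± 0.14, adjusted p = 0.0122). At Frat2, which binds the kinase GSK3, the 2 h values were 8428 and 7209 bp, 1 of the 6 h lists had 8473 bp and both 12 h lists had none (-5.32 ± 0.16, adjusted p = 0.0122). The regions at Supt4a, a transcription elongation factor gene, and Pip5k1a, a lipid kinase gene, likewise had a peak in both 2 h lists, in 1 of the 6 h lists and in neither 12 h list (adjusted p = 0.0123 and 0.0274). The 1 member called higher was at Tbpl1, which encodes a relative of the TATA-binding protein. It covered 7657 and 7269 bp at 0 h, nothing at 2 h, 8520 bp in 1 of the 6 h lists, 8663 and 8371 bp after 12 h and nothing at 24 h.

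Such promoters carry very long peaks, and long peaks went missing from single lists throughout this series. No H3K27ac peak in the 10 lists was longer than 9000 bp. Among regions with a median percentile of at least 50, a time point had a peak in only 1 of its 2 lists in 0.0889% of cases where the longest peak was 1 to 2 kb, in 1.73% at 5 to 6 kb and in 16.0% at 8 to 10 kb. Of the members, 84 had a longest peak of 4000 bp or more. In these, 48 held a TSS and 53 had H3K4me3 in all 10 lists. Of the 640 members with shorter peaks, 35 held a TSS. The part of peak length in these losses was not tested. Without the 84, 1 of 508 members tested was called lower at 12 h, the one in Wapl, and 38.39% lay below at 12 h by the comparison of lists, against 18.46% of the 65 long ones compared.

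**Figure D3:**
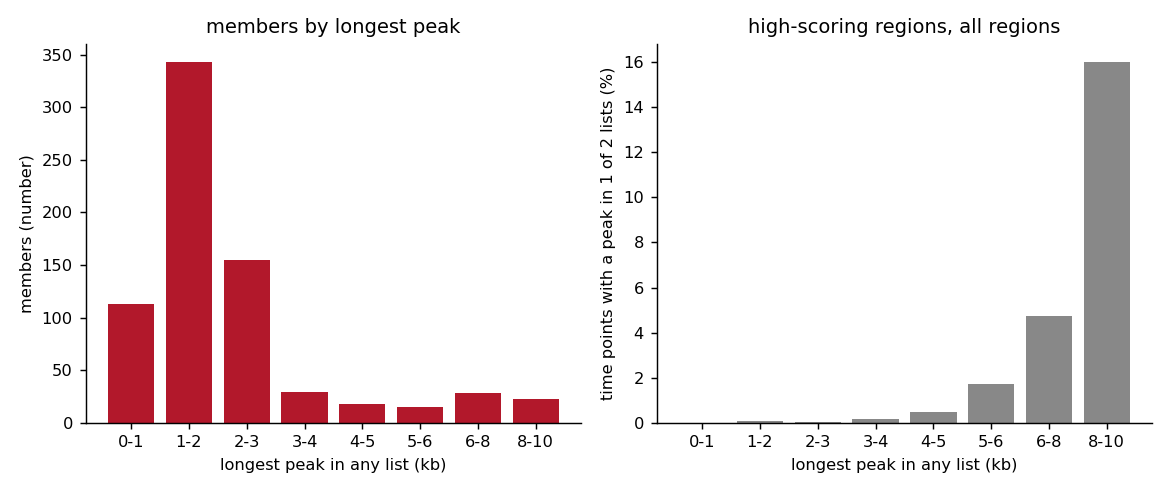
Left, number of members by the length of the longest H3K27ac peak in any list (horizontal axis, kb). Right, over all regions with a median score percentile of at least 50, the percentage of time points at which only 1 of the 2 lists had a peak, among those with at least 1 (vertical axis). The largest class of members has a longest peak of 1 to 2 kb (343 members), and the disagreement between lists rises from 0.473% at 4 to 5 kb to 16.0% at 8 to 10 kb.

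The members with the highest 0 h percentiles were nearly all of the long kind. Tmbim6, a regulator of cell death in the endoplasmic reticulum, came first at a mean percentile of 89.28, and its region covered 6791 and 8806 bp at 0 h, 4719 and 6308 bp after 2 h, 0 and 5883 bp after 6 h, 3374 and 5767 bp after 12 h and nothing at 24 h. Its H3K4me3 covered 2951 and 3534 bp at 0 h and 3979 and 3662 bp after 24 h, so the promoter mark was as wide when no H3K27ac peak was listed. Setd1a, a histone H3K4 methyltransferase, had 3847 and 5457 bp at 0 h, 3889 and 2990 bp after 2 h, 3959 and 3760 bp after 6 h, and 0 and 3556 bp after 12 h. Cop1, a ubiquitin ligase, had a peak of 4182 and 4126 bp at 0 h but in only 1 of the 2 h lists, and then 4465 and 4503 bp after 12 h. Rab5c, Hnrnpk, Baz1a, Chsy1 and Dhrs11 also lacked a peak in at least 1 list between 2 h and 12 h. All 8 of these promoters had H3K4me3 in both 24 h lists.

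Among the 9 promoters in the top 10 by rank, Hemgn alone had a peak in every list up to 12 h, as did the promoter next in rank, Pigq. It encodes hemogen, a nuclear protein of blood progenitors and red cell precursors. Its region at chr4:46401350-46406400 covered 4116 and 4273 bp at 0 h, 4210 and 4338 bp after 2 h, 4894 and 3988 bp after 6 h and 4495 and 4646 bp after 12 h, with nothing at 24 h. H3K4me3 there covered 2976 and 2563 bp at 0 h and 3668 and 3621 bp after 24 h, so that the lists at these times did not overlap, although the difference in limma was 0.38 ± 0.10 (SE) with an adjusted p of 0.2. The rule fixed the H3K27ac peaks at 0 h, at least 1 at 6 h and their absence at 24 h. The lists that it did not use, those at 2 h and 12 h, all held the peak at Hemgn.

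By the mean of 2 lists, the distal member of highest rank shortened at each step. Its lists at 2 h and 6 h overlapped in length. It lay between genes at chr13:4256297-4258535, 10969 bp from the TSS of Akr1c19, and covered 2181 and 2188 bp at 0 h, 1715 and 2027 bp after 2 h, 1287 and 1860 bp after 6 h and 1044 and 1137 bp after 12 h. Its score percentile went from 63.89 and 61.47 at 0 h to 53.83 and 53.81 after 2 h, 45.35 and 46.68 after 6 h, and then 33.27 and 27.01 after 12 h. The 12 h values lay below the 2 h values on both measures, with a limma difference in length of -0.68 ± 0.14 (adjusted p = 0.23). It formed a cluster with 2 more members within 15487 bp. The member at chr13:4264064-4265306 covered 1095 and 886 bp at 0 h and had no peak at 12 h, and the one at chr13:4270802-4271783 covered 899 and 816 bp at 0 h and 678 and 875 bp after 12 h. These were the only 3 regions of the span with a peak in both 0 h lists.

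Most members stood alone. A chain of members within 50 kb of each other held 2 or more in 42 cases, with 86 members in all. The other chain of 3 spanned chr16:50026068-50071555, between 159235 and 201740 bp from Cd47, the surface signal against engulfment by macrophages. Its first member covered 1953 and 1421 bp at 0 h and 1686 and 1387 bp after 12 h, whereas its last covered 2823 and 2310 bp at 0 h and 0 and 1327 bp after 12 h. The middle member, of 576 and 583 bp at 0 h, overlapped a CTCF peak at 0 h and at 24 h. A pair of members at Fam107b, 1 at a TSS and 1 in an intron, followed with a span of 49340 bp. The promoter member went from 1500 and 1759 bp at 0 h to 0 and 741 bp after 12 h, and the intronic one had 2970 and 3583 bp after 12 h. Of all members, 169 (23.34%) lay within 10 kb of a region present in all 10 lists, against 30.18% of the regions with a peak in both 0 h lists.

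**Figure D4:**
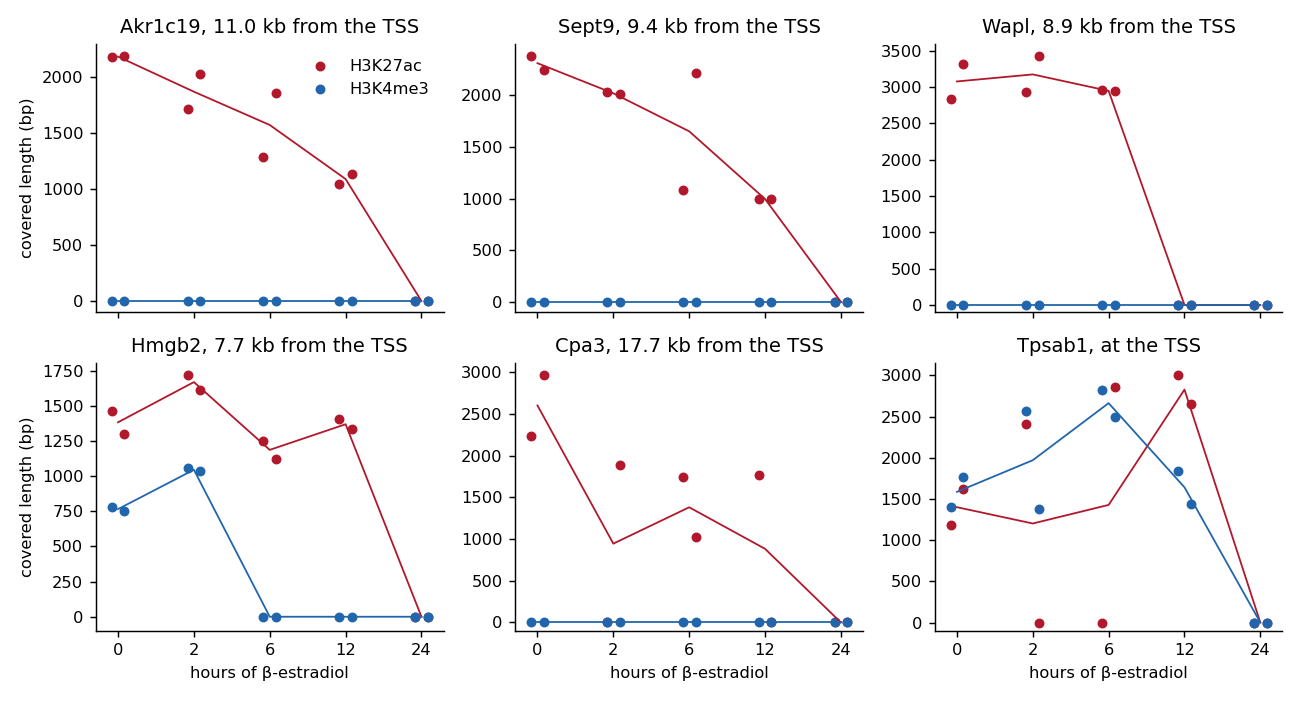
Covered length in bp (vertical axes) of H3K27ac (red) and H3K4me3 (blue) by hours of β-estradiol (horizontal axis, evenly spaced) at 6 members. Each point is 1 list and lines join the means of the 2 lists. H3K27ac at Akr1c19 and Sept9 shortened by 12 h, at Wapl it was gone at 12 h, and at Tpsab1 both marks were listed at 12 h and neither at 24 h.

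Members near genes of the red cell and progenitor programs were counted over the gene lists. Of 9620 protein-coding genes with a 0 h region within 50 kb for which they are the nearest TSS, 483 (5.02%) had a member. Among mast cell and progenitor genes it was 2 of 16, Cpa3 and Alox5ap. Among stem cell and myeloid transcription factors it was 1 of 13, Bach2, and among erythroid genes 2 of 32, of which the one at Foxo3 is described here. None of 14 proliferation and survival genes and none of 21 cytokine receptor and signalling genes had one. Of 37 genes whose promoters were captured in the study, 4 did. At Dhrs11 and Sept9 a member held the TSS, and at Cpa3 and Plekho2 it lay away from it. The study captured promoters of activated genes and of repressed genes. Dhrs11 and Plekho2 are among the activated genes, and Cpa3 and Sept9 are among the repressed genes. These lists were made with earlier results of these data known, and their counts were not tested.

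The member at Cpa3 lay 17697 bp from the TSS at chr3:20221515-20224484. It covered 2236 and 2970 bp at 0 h, 0 and 1891 bp after 2 h, 1740 and 1024 bp after 6 h and 1767 and 0 bp after 12 h, and held no H3K4me3. The lists of a time point disagreed at both 2 h and 12 h. At Alox5ap, which assists leukotriene synthesis, the TSS region covered 977 and 1148 bp at 0 h and 1118 and 0 bp after 12 h, and H3K4me3 covered 887 and 1024 bp at 0 h and 796 and 0 bp after 24 h (limma adjusted p = 0.499).

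In Bach2 the member lay in an intron, 10779 bp from the TSS, and covered 1235 and 1196 bp at 0 h, 1196 and 1068 bp after 2 h, 1063 and 1398 bp after 6 h and 0 and 896 bp after 12 h. H3K4me3 covered 1398 and 1303 bp there at 0 h and 1341 and 1391 bp after 24 h. One mark left the lists and the other was still listed. H3K4me3 was counted only inside the member, which is 1398 bp long, and its values lay at or near that limit. Its full width was therefore not measured, and the limma difference of 0.01 ± 0.06 (SE, adjusted p = 0.995) cannot show whether it changed.

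The member at an erythroid gene described here was interrupted. It lay in Foxo3, a forkhead transcription factor that acts in red cell maturation, 858 bp from the TSS, and covered 4093 and 3598 bp at 0 h, nothing at 2 h, 2932 and 3949 bp after 6 h and 3863 and 0 bp after 12 h.

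Among the genes with captured promoters, the septin gene Sept9 had 2 members. The one in an intron, 9366 bp from the TSS, covered 2378 and 2244 bp at 0 h, 2030 and 2009 bp after 2 h, 1087 and 2216 bp after 6 h and 998 and 995 bp after 12 h, and the 12 h against 2 h difference was -0.89 ± 0.11 (adjusted p = 0.115). The lists at 12 h lay well below those at 2 h, but the fit did not call it. The one at the TSS covered 639 and 1405 bp at 0 h and had a peak in 1 of the 6 lists from 2 h to 12 h. The member nearest Plekho2, 21829 bp from its TSS, covered 4269 and 3921 bp at 0 h and had a single later peak of 5555 bp after 6 h.

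H3K4me3 was rare at members, and where it was present at 0 h most members still had it at 24 h, though a smaller share than of other regions. It was in none of the 10 lists at 511 members and in all 10 at 98. The share of members with a peak was 22.1% and 25.0% at 0 h and 16.71% and 16.16% at 24 h, against 70.53% and 71.83% and then 66.49% and 67.15% for regions with a peak in both 0 h lists. Regions lost early had 24.05% and 27.15% at 0 h. Without a TSS, H3K4me3 was in both 0 h lists at 11.9% of members and 14.62% of others under the 10th percentile of H3K27ac. From 10 to 20 it was 14.1% and 22.19%, from 20 to 30 8.79% and 26.88%, and from 30 up 10.1% and 51.99%. Of 145 members with H3K4me3 in both 0 h lists, 106 had it in both 24 h lists and 25 in neither. Of the 11063 regions with both marks in both 0 h lists, 10367 kept H3K4me3 in both 24 h lists and 378 had it in neither. No member gained it in both 24 h lists after having it in neither 0 h list. Such a gain was rare at large, with 26 of the 16020 regions that had H3K27ac in both 0 h lists. Members with a TSS kept it more often, with 64 of 71 still in both 24 h lists, against 42 of 74 members without a TSS. Of all regions with a TSS and H3K27ac in both 0 h lists, 8015 of 8064 kept it. In the 7763 regions without a TSS that had H3K27ac in both 0 h lists, 2352 of 2999 kept it. Of the 64, 46 were among the members with a peak of 4000 bp or more.

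The 25 members that lost H3K4me3 did so at different times. At 2 h, 10 of them had it in both lists, at 6 h 5 did and at 12 h 3 did. At 12 h 14 had it in neither list. Of these 14, 12 had H3K27ac in at least 1 of the 12 h lists and 7 had it in both, beside 543 and 290 of all 724 members. The rule required H3K27ac at 6 h, so the order in which the marks left the lists is in part fixed by the choice of members.

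The fit of H3K4me3 length used all 10 lists and compared 24 h with 0 h within each H3K27ac region. Of 13255 regions tested, 1.43% were lower and 0.505% were higher at 24 h at an adjusted p under 0.05. Of 178 members tested, 8 (4.49%) were lower and 4 (2.25%) were higher. At an unadjusted p under 0.05 the background was 8.78% lower and 3.64% higher, and the members had 27 (15.2%) and 14 (7.87%). The median difference was -0.04 in members and -0.02 over all regions tested. Leaving out 1 list gave from 4 to 14 members lower, with 4 without either 0 h list and 14 and 13 without the first and second 2 h list. Leaving out 1 list gave 1 higher without either 0 h list or the second 24 h list, 2 without the first 24 h list or any list at 6 h or 12 h, and 3 without either 2 h list.

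All 8 members with less H3K4me3 at 24 h had no peak of 4000 bp or more. The largest difference was at Tpsab1, a mast cell tryptase gene, whose TSS region at chr17:25342819-25345922 had H3K4me3 over 1401 and 1771 bp at 0 h, 2563 and 1377 bp after 2 h, 2825 and 2500 bp after 6 h, 1844 and 1439 bp after 12 h and none at 24 h (-3.15 ± 0.27, adjusted p = 0.00435). Its H3K27ac covered 1179 and 1621 bp at 0 h, 2404 and 0 bp after 2 h, 0 and 2855 bp after 6 h and 3005 and 2648 bp after 12 h. Both marks were in both 12 h lists and absent at 24 h. Its 0 h percentile was only 1.12.

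Near Ube2e3 H3K4me3 was likewise in both 12 h lists and absent at 24 h. That intergenic member, 210727 bp from the TSS, had H3K4me3 over 1188 and 1319 bp at 0 h, 1097 and 1148 bp after 12 h and none at 24 h (-2.86 ± 0.16, adjusted p = 0.00103). Its H3K27ac covered 1530 and 667 bp at 0 h, 0 and 1596 bp after 2 h, 968 and 1293 bp after 6 h and 0 and 1364 bp after 12 h, so that 1 of the 12 h lists already had no peak. Fkbp5 encodes a partner of steroid receptors, and the member 42 bp from its TSS had H3K4me3 over 1166 and 1432 bp at 0 h, 1091 and 1059 bp after 12 h and none at 24 h (-2.90 ± 0.18, adjusted p = 0.00129). H3K27ac there fell in width earlier, from 1620 and 1688 bp at 0 h to 812 and 927 bp after 2 h and 0 and 975 bp after 12 h. Of the 25 members that lost H3K4me3, these 3 had it in both 12 h lists.

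In the other 5 members called, H3K4me3 was in neither 12 h list. Near Hmgb2, which encodes a chromatin protein of dividing cells, H3K4me3 covered 779 and 753 bp at 0 h, 1056 and 1036 bp after 2 h and nothing from 6 h on (-2.27 ± 0.19, adjusted p = 0.004), whereas H3K27ac covered 1251 and 1124 bp after 6 h and 1406 and 1334 bp after 12 h. Near Gm10306, H3K4me3 covered 706 and 710 bp at 0 h and 586 and 585 bp after 2 h and was absent from 6 h on, and H3K27ac was still 1200 and 1308 bp wide at 12 h. Near the kinase gene Tlk1, H3K4me3 was listed at 0 h only, over 827 and 968 bp, while H3K27ac went from 2123 and 1877 bp at 0 h to 1418 and 1951 bp after 12 h. The intronic member in Cdkl3, a kinase gene, likewise had H3K4me3 at 0 h only (634 and 645 bp), and its H3K27ac covered 606 and 836 bp at 0 h, 0 and 627 bp after 2 h, 809 and 947 bp after 6 h and nothing at 12 h. At Bcl2l15, a BCL2 family gene, H3K4me3 covered 793 and 1026 bp at 0 h, 583 and 682 bp after 6 h and nothing at 12 h, where H3K27ac covered 1242 and 0 bp. Of these 5 members, those near Hmgb2, Gm10306 and Tlk1 had H3K27ac in every list up to 12 h.

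The 4 members with more H3K4me3 at 24 h were promoters with long H3K27ac peaks. At Arrb1, which encodes a β-arrestin, H3K4me3 covered 1245 and 724 bp at 0 h, 1270 and 1262 bp after 2 h, 1724 and 1895 bp after 6 h, 1847 and 1935 bp after 12 h and 3262 and 4201 bp after 24 h (1.76 ± 0.21, adjusted p = 0.0132). Its H3K27ac covered 6377 and 6811 bp at 0 h, 6804 and 0 bp after 12 h and nothing at 24 h. At Smim1, which carries the Vel blood group of red cells, H3K4me3 covered 4605 and 4754 bp at 0 h and 5970 and 5714 bp after 24 h (0.31 ± 0.05, adjusted p = 0.032), and H3K27ac covered 8135 and 6978 bp at 0 h and 0 and 8662 bp after 12 h. Pigq, a gene of GPI anchor synthesis, and Dnajb12, a chaperone partner gene, differed by 0.29 ± 0.04 (adjusted p = 0.0304) and 0.28 ± 0.04 (adjusted p = 0.0336). At these 4 promoters the H3K4me3 lists of 24 h all lay above those of 0 h, with H3K27ac unlisted at 24 h.

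CTCF overlapped a smaller share of members than of all regions with a peak in both 0 h lists, and regions lost early were alike in this. A peak was present at 121 members (16.71%) at 0 h and 135 (18.65%) at 24 h, with 110 in both lists, 11 at 0 h only and 25 at 24 h only. For regions with a peak in both 0 h lists, the shares were 29.51% and 36.44%. Without a TSS they were 13.88% and 14.66% of members, against 23.73% and 27.85%. Regions lost early had 15.81% at 0 h and 18.56% at 24 h, and 14.06% and 16.06% without a TSS, so a low share was not particular to late loss. A wider region has more room for an overlap. Without a TSS the median width was 1747 bp in members, 1215 bp in regions lost early and 2599 bp in the 0 h regions. The part of width in these shares, and in the H3K4me3 shares above, was not tested. There was 1 CTCF list per time point, with 33193 peaks at 0 h and 41473 at 24 h, so the change with time has no replicate check. The rise in members was smaller than that in the other regions on this description.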

How the data were processed

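H3K27ac, H3K4me3 and CTCF ChIP-seq peak lists from G1ER cells were grouped by antibody and hours as given in the sample titles. Per the study's methods, histone mark reads were aligned by the authors with Bowtie2 to mm10, uniquely mapped reads were kept, and peaks were called per library with MACS without its model step. The MACS version, control library and threshold, and all methods for CTCF, are not given in the sources used here. Each peak carries a score deposited by the authors, which looks like the caller's p-value on a negative log10 scale with a multiplier. Scores do not compare between libraries, so ranks were taken as percentiles within a list. The setting with higher-scoring peaks and the counts of scores under 60 still used the deposited scores across lists, which limits both. The sample descriptions name a human build, but the positions were those of mm10 (GRCm38). The lists hold no read counts, so depth and the precision it gives are unknown.

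The members, gene lists and tests were chosen with earlier results of these data known. Peaks were merged where they touched. Covered bp per region were tested two-sided with limma (lmFit, eBayes with trend, log2(bp + 200), Benjamini-Hochberg over all regions with a peak in at least 2 of the lists). Peaks that are present or absent depart from the noise that limma assumes. TSS were those of GENCODE M21 and sequence that of the GRCm38 RefSeq assembly. Named members were the 10 with the highest 0 h percentile, those called in either fit, those within 50 kb of a listed gene and 3 clusters, and 1 of them is not reported here. Other settings were other pseudocounts, score and merging rules, other lists in the fits, a replicate block, fits without trend and leaving out each list. The tools were limma 3.58.1 under R 4.3.3, and pandas 2.3.3, numpy 2.4.6 and matplotlib 3.10.9 under Python 3.11.15.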

Additional observations from a re-analysis of the deposited data

How the results depend on the processing

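The number of members was 724 as reported, 380 with higher-scoring peaks only, and from 561 to 1298 when 1 H3K27ac list was left out, and stayed within 1.5 times the reported number under the other alternatives. The 5 members lower in H3K27ac at 12 h became 3 and 9 with pseudocounts of 50 and 1000 bp, 24 with higher-scoring peaks, 55 without the trend, 23 with all 10 lists in the fit (which include those the rule used), from 0 to 10 when 1 list was left out, and 1 among members with peaks under 4 kb, a split chosen after seeing the data. The 1 member higher at 12 h became 15 with higher-scoring peaks, 18 without the trend, 7 with all 10 lists and 0 whenever 1 list was left out. With a replicate block no member was called in either direction (0 lower and 0 higher) for H3K27ac, and 7 were lower and 3 higher for H3K4me3. Lists with the same number did not deviate together: of 10 same-number correlations per mark, none was over 0.1 (H3K27ac -0.029 to 0.017, H3K4me3 -0.131 to 0.048), so the block rests on a shared number only. The 8 members lower in H3K4me3 at 24 h became 18 in a fit of the 4 lists at 0 h and 24 h, and from 4 to 14 when 1 list was left out. The 4 higher became 1 with higher-scoring peaks, 1 in the fit of 4 lists, and from 1 to 3 when 1 list was left out. The cause of these changes was not tested.

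With higher-scoring peaks, the share of members with a peak in both 2 h lists was 47.368%, with a TSS 33.947%, with CTCF 26.053% at 0 h and 30.263% at 24 h. The GATA share was 85.526% with these peaks, 67.403% in 500 bp and 97.099% in 2000 bp. Merging within 500 bp, which left 707 members from the same lists, kept every share within its 95% Wilson interval. That interval served only as a yardstick, since the members are not independent draws. A missing peak does not show that the mark is absent, since presence also depends on depth, background and the caller's score limit, and none of these can be measured from the lists.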

Other observations

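A pair of members far from any promoter, each with a peak in each H3K27ac list up to 12 h, is named here after their values were seen. The intergenic member nearest Anxa10, an annexin gene, lay 358236 bp from its TSS and covered 3076 and 2876 bp at 0 h, 2865 and 2552 bp after 2 h, 2362 and 2137 bp after 6 h and 1906 and 1777 bp after 12 h. The intronic member in Auts2, a neurodevelopmental gene, lay 178294 bp from the TSS and covered 2698 and 2908 bp at 0 h, 2116 and 2811 bp after 2 h, 2293 and 2291 bp after 6 h and 1931 and 1807 bp after 12 h. At both, the lists of 12 h lay below those of every earlier time.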
